A study of Mus musculus with 8 samples.

Results

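The extracellular matrix and matrix regulator genes are described here in single-cell RNA sequencing of dissociated mouse retina. They were chosen by gene symbol, as collagens, laminins, fibulins, fibrillins, ADAM and ADAMTS proteins, matrix metalloproteinases and their TIMP inhibitors, serpins, insulin-like growth factor binding proteins, SPARC and testican proteins, thrombospondins, lysyl oxidases, EFEMP proteins, spondins and 8 genes named singly. The symbols were chosen with earlier results of these data known. The rule found 50 of the 1802 genes of the authors' deposited table, out of 241 protein-coding genes that match it in the GENCODE annotation of GRCm38. The study has 3 libraries of control genotype, titled WT, and 5 of genotype ABCA1KO, titled KO, all of retinal tissue. The sources used here do not give the strain, age or sex of the mice, the deleted part of the gene, the cells that carry the deletion or whether each library came from 1 animal. ABCA1 is the membrane transporter that passes cholesterol and phospholipid to apolipoproteins, and the title of the series places the interest in astrocytes and in the optic nerve.

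The values come from one comparison of all KO cells with all WT cells and have no library behind them, so the spread between libraries is unknown for every difference below. A log difference is KO minus WT on a natural-log scale, of values that appear to be batch-integrated, and is not a fold change of expression. A share is the percentage of cells with such a value above 0, and is not the detection of a transcript. A gene is called when the authors' adjusted p is under 0.05. The median log difference over all listed genes was 0.010. Because cells of every type were pooled within a genotype, a change in the mix of cells and a change of level within a cell cannot be told apart. Abca1 itself was listed higher in KO per the authors' deposited table (log difference 0.0294, 48.7% of KO and 30.5% of WT cells above 0), against the direction of its label. The deleted part is unknown here, so whether these values bear on the deletion was not tested. From here on, KO stands for the label of a library and not for a checked genotype. The label of retina could not be checked by these shares, since the rod arrestin gene Sag was above 0 in 98.7% of WT cells and the lens gene Crybb2 in 88.1% per the authors' deposited table.

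The extracellular matrix is the network of collagens, glycoproteins and proteoglycans that cells secrete around themselves. In the eye it forms the inner limiting membrane on the end feet of Müller glia, the basement membranes of retinal vessels, Bruch's membrane under the pigment epithelium and the fibrils of the vitreous. Metalloproteinases of the MMP, ADAM and ADAMTS families cut matrix and membrane proteins, TIMP proteins and serpins hold proteases in check, and binding proteins keep growth factors such as insulin-like growth factor in or out of reach of their receptors. Matrix turnover at the optic nerve head is a long-standing subject of glaucoma research.

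Matrix genes were mostly listed as higher in KO, at a rate close to that of the whole table. Of the 50 genes, 36 were called higher, 8 lower and 6 were not called, in a table that called 93.2% of its genes, 69.1% higher and 24.1% lower. Among the called ones 81.8% were higher, against 74.2% among all called genes of the table. Their median log difference was 0.0151, and single genes ran from -0.0522 for Igfbp7 to 0.0855 for Spock3 per the authors' deposited table. Of the 50 genes, 25 were called and lay above the median gene of the table, as did 45.9% of all listed genes. The other 19 called genes lay below it, and 11 of them were genes called higher. Most differences were small: 18 of 50 (36%) were within 0.01 of 0, as were 39% of all listed genes, and 6 (12%) were at least 0.05 in size, against 13.3% of all listed genes.

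By role, structural matrix had 23 genes called higher and 4 lower of 30, with a median of 0.0168. Proteases and inhibitors had 11 higher and 2 lower of 15, with a median of 0.0108. The 5 growth factor binders split evenly, with 2 higher, 2 lower and 1 not called, and held both the lowest matrix gene and one of the 5 highest. The plot of log differences by family shows this spread within families.

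**Figure D1:**
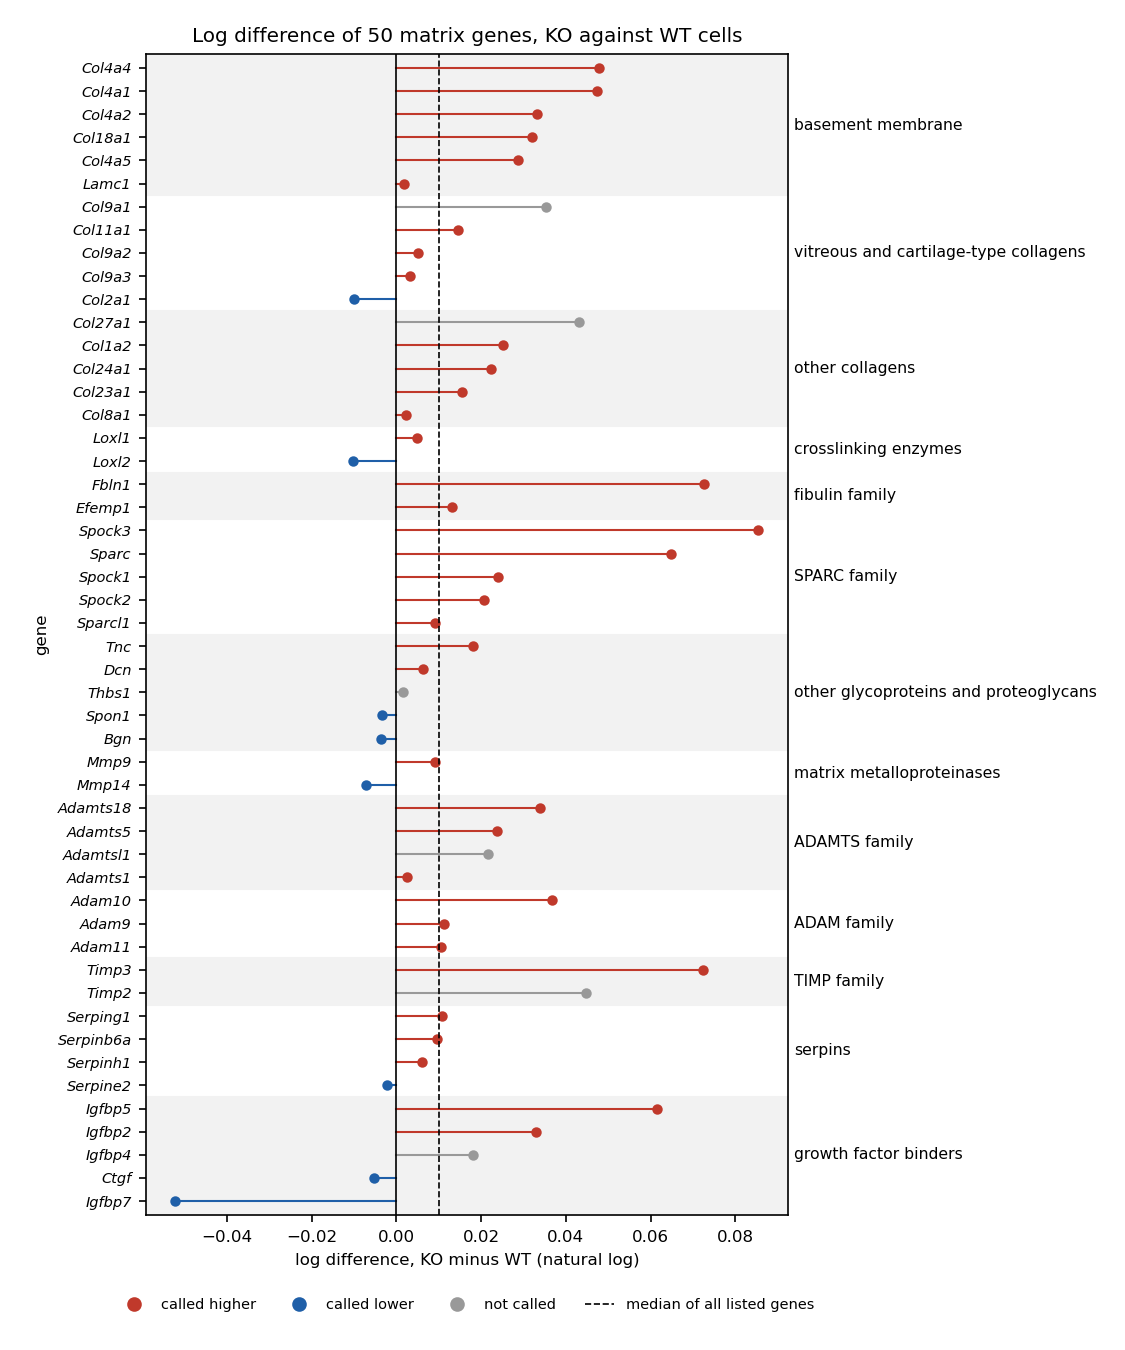
Log difference (KO minus WT, natural log, horizontal axis) of the 50 matrix genes per the authors' deposited table, ordered by family, with points coloured by call and a dashed line at the median of all listed genes (0.010). Basement membrane and SPARC family genes all lie above 0, with Lamc1 and Sparcl1 left of the dashed line, while Igfbp7 at -0.0522 lies far below every other matrix gene.

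Basement membrane genes were all called higher, although Lamc1 lay below the median gene of the table. Type IV collagen is the sheet-forming collagen of basement membranes, and 4 of its 6 chains were listed. Col4a1 and Col4a2 encode the chains that are found together in nearly all basement membranes. Col4a1 was above 0 in 66.1% of KO and 48% of WT cells per the authors' deposited table, and its log difference was 0.0474 (the authors' adjusted p = 3.08e-36). Col4a2 was above 0 in 74.1% of KO and 47.3% of WT cells per the authors' deposited table, and its log difference was 0.0333, with an adjusted p listed as 0, that is, too small to be stored. Both chains thus differed in the same direction, with the larger log difference in Col4a1 and the larger difference in share in Col4a2.

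These genes stand head to head on chromosome 8 of GRCm38, Col4a1 on the minus strand from 11198423 to 11312826 and Col4a2 on the plus strand from 11312805 to 11449287. Their annotated first bases overlap, and the stretch around them is shown because one short piece of DNA holds both starts. Both genes were called higher, as were 69.1% of all listed genes. Whether the shared stretch bears on that direction was not tested. The stretch is given on the plus strand, from RefSeq's GRCm38.p6 promoter table, at chr8:11312801-11312830. The 22 bases from the Col4a2 start to the Col4a1 start are in capitals.
Col4a1/Col4a2 starts: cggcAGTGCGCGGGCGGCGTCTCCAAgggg
The capitals hold a GC box (GGGCGG, searched on both strands). Over windows from 250 bases before to 50 bases after each start, that motif was found in 27 of 41 windows of the 34 matrix genes matched in the table (65.9%). The share was 58% in windows of other listed genes and 35.7% in all 32851 windows. The CCAAT motif, also searched on both strands, was found once in each window of the pair, at these places on the plus strand with the motif in capitals.
Col4a1 window: ccttggctcgCCAATcccgggcaag
Col4a2 window: gaggagctccCCAATttgttggcgc
The first lies at chr8:11312957-11312981 and the second at chr8:11312763-11312787. CCAAT was found in 29.3% of the windows of matrix genes, in 34.7% of those of other listed genes and in 37.4% of all windows. A match describes the letters and is no evidence of binding.

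The other type IV chains were called in the same direction. Col4a4, a chain of the specialised network affected in Alport syndrome, had a log difference of 0.0478 and was above 0 in 68.4% of KO and 46.6% of WT cells per the authors' deposited table (the authors' adjusted p = 1.52e-94). Col4a5, its X-linked partner, had 0.0288, with 57.5% and 40.9% of cells above 0 per the authors' deposited table (the authors' adjusted p = 4.53e-47). Collagen XVIII, the basement membrane collagen that is the source of endostatin and is altered in Knobloch syndrome, was also higher. Col18a1 had a log difference of 0.0321, with 69.2% of KO and 50.5% of WT cells above 0 per the authors' deposited table (the authors' adjusted p = 5.90e-50).

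Lamc1, the laminin gamma chain shared by most laminins, was the only listed laminin of 11 annotated. It combined a log difference of only 0.00174 with the largest difference in share of all 50 genes, 61.7% of KO against 29.4% of WT cells, per the authors' deposited table. Its adjusted p was nevertheless listed as 0 per the authors' deposited table, so a small p there does not mark a large log difference. Against the median gene Lamc1 was lower, whereas the 5 basement membrane collagens stayed above it.

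Collagens of the vitreous and of cartilage went both ways, with 3 called higher, 1 lower and 1 not called, and 2 of the 5 above the median gene of the table. Collagens II, IX and XI form mixed fibrils in both tissues. Col2a1, the main chain, was called lower, with a log difference of -0.00990 although 47.8% of KO and 28.8% of WT cells were above 0 per the authors' deposited table. All 3 collagen IX chains were listed. Col9a2 (0.00505) and Col9a3 (0.00326, with 46.3% of KO and 26.4% of WT cells above 0) were called higher but lay below the median gene per the authors' deposited table. Col9a1 had the largest value of the group, 0.0354, and was not called (51.9% of KO and 32.4% of WT cells above 0, adjusted p = 0.155, per the authors' deposited table). Col11a1 was called higher at 0.0146, with 24.3% of KO and 20.7% of WT cells above 0 per the authors' deposited table.

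Among the other collagens 4 were called higher and 0 lower of 5. Col1a2, a chain of the fibrillar type I collagen of connective tissue, had 0.0252 and shares of 41.8% in KO and 31.9% in WT per the authors' deposited table (the authors' adjusted p = 9.02e-35). The fibrillar collagen gene Col24a1 (0.0224) and the transmembrane collagen gene Col23a1 (0.0156) were also called higher per the authors' deposited table. Col27a1, another fibrillar collagen, had 0.0430 and was not called (55.6% of KO and 40.9% of WT cells, adjusted p listed as 1, per the authors' deposited table). Col8a1, a short-chain collagen of Descemet's membrane and vessel walls, went both ways: its log difference was 0.00237, yet 22.9% of KO and 29.9% of WT cells were above 0 per the authors' deposited table. Over all 15 collagens, 12 were called higher, 1 lower and 2 not, with a median of 0.0252.

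Both listed enzymes that crosslink collagen and elastin lay below the typical gene. Loxl1, the lysyl oxidase-like gene tied to exfoliation glaucoma, had a log difference of 0.00482, called higher but under the median gene, per the authors' deposited table. Loxl2 was called lower at -0.0102, with 31% of KO and 22.3% of WT cells above 0 per the authors' deposited table (the authors' adjusted p = 2.91e-277).

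The SPARC family held the highest matrix gene, and its 5 listed genes were all called higher, with a median of 0.0240 and Sparcl1 below the median gene of the table. They encode SPARC and hevin, secreted glycoproteins that modulate cell contact with matrix and, in the brain, the formation of synapses by astrocytes, and the testicans, proteoglycans made largely in nervous tissue. Spock3 (testican-3) was above 0 in 73.2% of KO and 42.7% of WT cells per the authors' deposited table. Its log difference of 0.0855 ranked 65 from the highest of 1802, with an adjusted p listed as 0 per the authors' deposited table. Sparc was above 0 in 75.6% of KO and 49.7% of WT cells, with a log difference of 0.0649, per the authors' deposited table (the authors' adjusted p = 6.70e-208). Spock1 had 0.0240, with 57.1% of KO and 35.3% of WT cells per the authors' deposited table (the authors' adjusted p = 2.77e-35).

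Spock2 had the second largest difference in share among the 50 genes, with 78.5% of KO and 46.9% of WT cells, at a log difference of 0.0207 per the authors' deposited table. Sparcl1, which encodes hevin, had 0.00910 per the authors' deposited table and was the only one of the family below the median gene. In all 5 the gain in share, from 21.8 to 31.6 percentage points, exceeded the median gain of 20.8 over all listed genes, which 23 of the 50 matrix genes did.

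Both fibulin family genes were called higher. Fbln1, which encodes fibulin-1 of elastic fibres and basement membranes, was above 0 in 77.1% of KO and 54.3% of WT cells, with a log difference of 0.0725, per the authors' deposited table (the authors' adjusted p = 6.42e-252). Efemp1, fibulin-3, which is altered in a dominant drusen disease of the macula, had 0.0132 with 68.2% and 41% of cells per the authors' deposited table.

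Of the 5 remaining glycoproteins and proteoglycans, 2 were called higher and 2 lower, and only Tnc lay above the median gene of the table. Tnc, tenascin-C, a glycoprotein of developing and injured tissue, was called higher at 0.0180 with 33.6% of KO and 27.4% of WT cells per the authors' deposited table. Dcn, decorin, which binds collagen fibrils and transforming growth factor beta, was called higher at 0.00637 although its share was smaller in KO, 15.9% against 19.1% in WT, per the authors' deposited table. Its close relative Bgn, biglycan, showed the reverse, a log difference of -0.00354 with 54.3% of KO and 22.9% of WT cells above 0 per the authors' deposited table. Spon1, which encodes F-spondin, an axon guidance protein, was called lower at -0.00347 per the authors' deposited table. Thbs1, thrombospondin-1, a secreted protein that activates latent transforming growth factor beta, was not called (0.00153, adjusted p = 0.376, per the authors' deposited table).

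**Figure D2:**
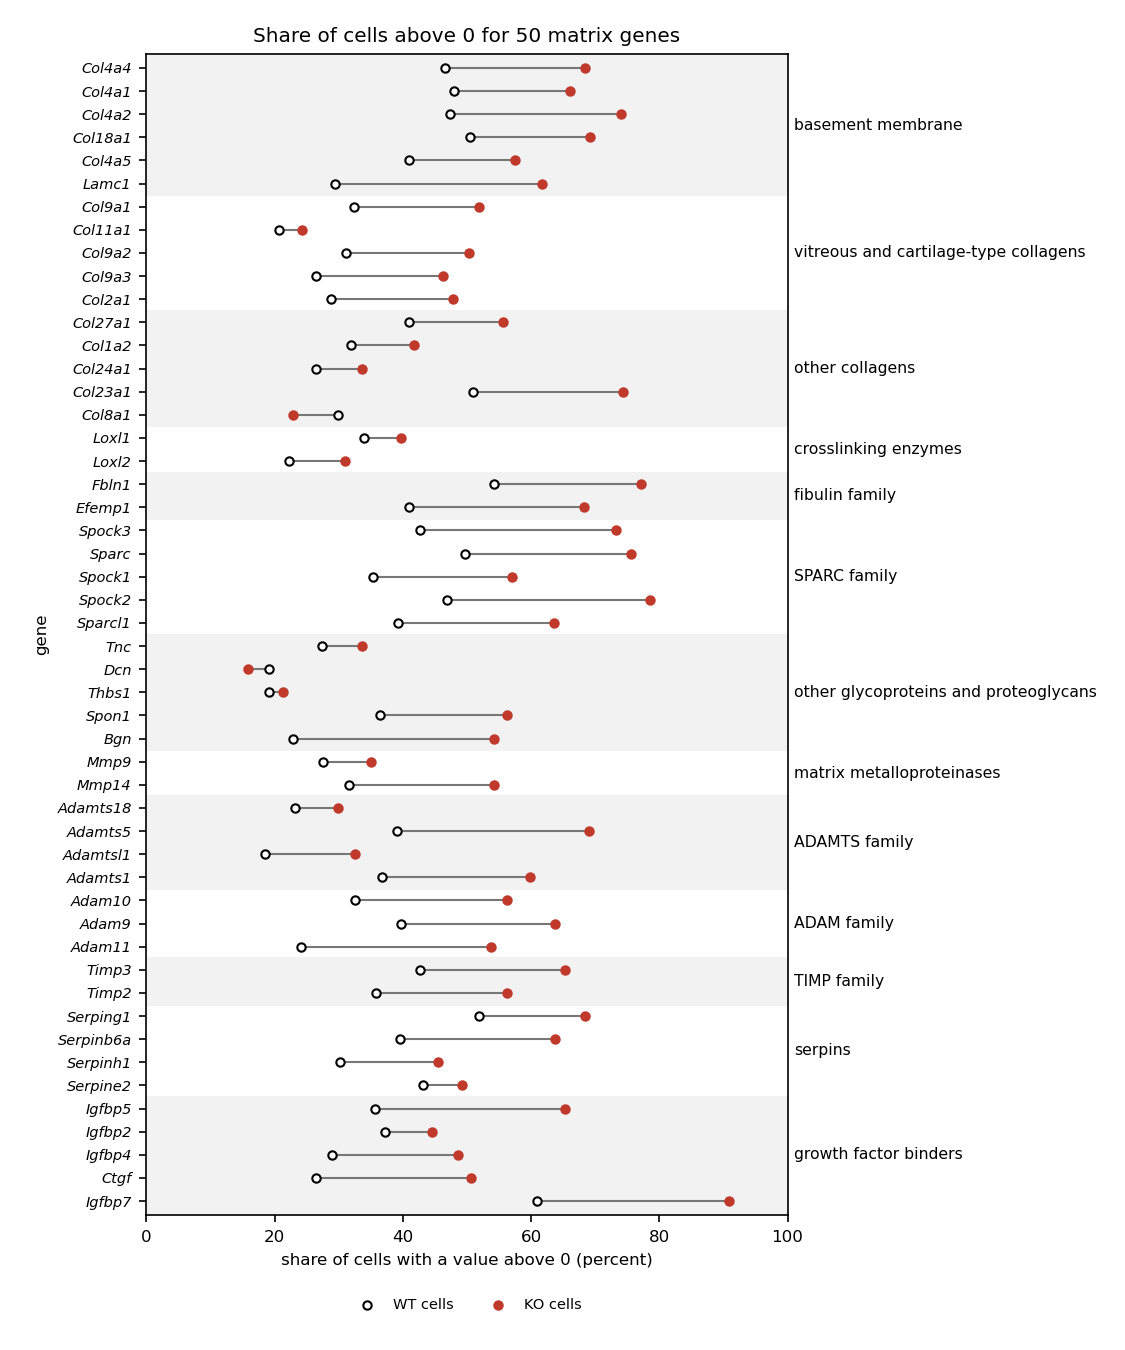
Share of cells with a value above 0 (percent, horizontal axis) in WT cells (open points) and KO cells (filled points) for the 50 matrix genes, ordered as in the plot of log differences. The share is larger in KO for 48 genes, and Col8a1 and Dcn are the 2 exceptions.

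Of 9 genes of the protease families, 7 were called higher, 1 lower and 1 not, with a median of 0.0111. The matrix metalloproteinases went both ways. Mmp9, a secreted gelatinase, was called higher at 0.00909 with 35% of KO and 27.6% of WT cells, and Mmp14, a membrane-anchored collagenase, was called lower at -0.00723 with 54.2% and 31.6%, per the authors' deposited table. Both lay below the median gene.

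ADAMTS proteins are secreted proteases, several of which cut the chondroitin sulphate proteoglycans of neural matrix. Adamts18, whose human counterpart is needed for normal development of the eye, had 0.0340 with 29.9% of KO and 23.2% of WT cells above 0, and an adjusted p listed as 0, per the authors' deposited table. Adamts5, an aggrecanase, had 0.0237 and a far wider gap in share, 69.1% against 39.1%, per the authors' deposited table (the authors' adjusted p = 3.44e-260). Adamts1, also an aggrecanase, was called at 0.00244, below the median gene, per the authors' deposited table. Adamtsl1, a relative without a protease domain, had 0.0215 and was not called (32.6% of KO and 18.5% of WT cells, adjusted p = 0.135 per the authors' deposited table).

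The 3 listed genes of membrane-bound ADAM proteins were all called higher, as were 69.1% of all listed genes. Adam10, the sheddase that releases Notch and the amyloid precursor protein ectodomain, had 0.0367 with 56.2% of KO and 32.6% of WT cells per the authors' deposited table (the authors' adjusted p = 4.19e-43). Adam9, altered in a cone-rod dystrophy, had 0.0111, and Adam11, a neuronal member without protease activity, had 0.0105 per the authors' deposited table.

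Of the 6 inhibitors and serpins, 4 were called higher, 1 lower and 1 not. Timp3, the matrix-bound inhibitor that accumulates in Bruch's membrane in Sorsby fundus dystrophy, was above 0 in 65.3% of KO and 42.7% of WT cells per the authors' deposited table. Its log difference of 0.0723 ranked 95 from the highest of 1802 per the authors' deposited table (the authors' adjusted p = 1.96e-51). Timp2 had 0.0449, the largest value of any matrix gene not called, with 56.3% of KO and 35.9% of WT cells and an adjusted p listed as 1 per the authors' deposited table.

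The serpins, named for serine protease inhibition, were nearer to 0. Serping1, the inhibitor of complement C1, had 0.0108 and Serpinb6a, an intracellular inhibitor, 0.00957 per the authors' deposited table. Serpinh1, an endoplasmic reticulum chaperone of collagen rather than an inhibitor, had 0.00614 with 45.5% of KO and 30.2% of WT cells per the authors' deposited table. Serpine2, protease nexin-1, an inhibitor of thrombin and plasminogen activators, was called lower at -0.00231 with 49.3% of KO and 43.2% of WT cells per the authors' deposited table.

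Growth factor binders held the sharpest contrast between family members. Igfbp5, which binds insulin-like growth factors and matrix, was above 0 in 65.3% of KO and 35.7% of WT cells, with a log difference of 0.0615 and an adjusted p listed as 0, per the authors' deposited table. Igfbp7, a vascular-enriched binder with low affinity for insulin-like growth factors, was above 0 in 90.9% of KO and 61% of WT cells, the largest shares of any matrix gene, per the authors' deposited table. Its log difference was nevertheless -0.0522, with an adjusted p listed as 0, per the authors' deposited table. The gain in share of these genes was thus nearly equal, at 29.6 and 29.9 percentage points, while their log differences were of opposite sign. Among the 52 listed genes with a log difference of -0.05 or less, Igfbp7 had the largest gain in share, against a median gain of 6.15 points. The 4 listed markers of pericytes and smooth muscle went both ways, with Rgs5 (-0.0507) and Myl9 (-0.0109) called lower and Acta2 (0.0428) and Pdgfrb (0.00961) higher per the authors' deposited table. The part of pericytes in the value of Igfbp7 was not tested.

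Igfbp2 was called higher at 0.0329, with a small gap in share (44.5% of KO and 37.2% of WT cells), per the authors' deposited table (the authors' adjusted p = 8.27e-127). Igfbp4 had 0.0181 and was not called (48.6% and 29% of cells, adjusted p = 0.119, per the authors' deposited table). Ctgf, a matricellular protein induced by transforming growth factor beta and YAP signalling, was called lower at -0.00537 although 50.6% of KO and 26.5% of WT cells were above 0 per the authors' deposited table.

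The share of cells and the log difference went in opposite directions in 10 of the 44 called matrix genes (22.7%), against 26.7% of all called genes. All 8 genes called lower had a larger share in KO, and 2 genes called higher, Col8a1 and Dcn, had a smaller one. A larger share in KO was the rule of the table, at 97.9% of all listed genes and 96% of matrix genes. Size and p were also not aligned: the 6 matrix genes that were not called had a median size of 0.0285, and the 44 called ones a median size of 0.0139. Over all listed genes the gap was smaller, with 0.0184 for uncalled and 0.0150 for called genes. No gene with a raw p above 0.00938 was listed, so the size of differences at larger p is unknown here. The called genes nearest to the threshold were Serpinh1 (adjusted p = 1.90e-09) and Col9a3 (1.51e-13) per the authors' deposited table. The nearest uncalled were Igfbp4 (0.119) and Adamtsl1 (0.135) per the authors' deposited table.

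**Figure D3:**
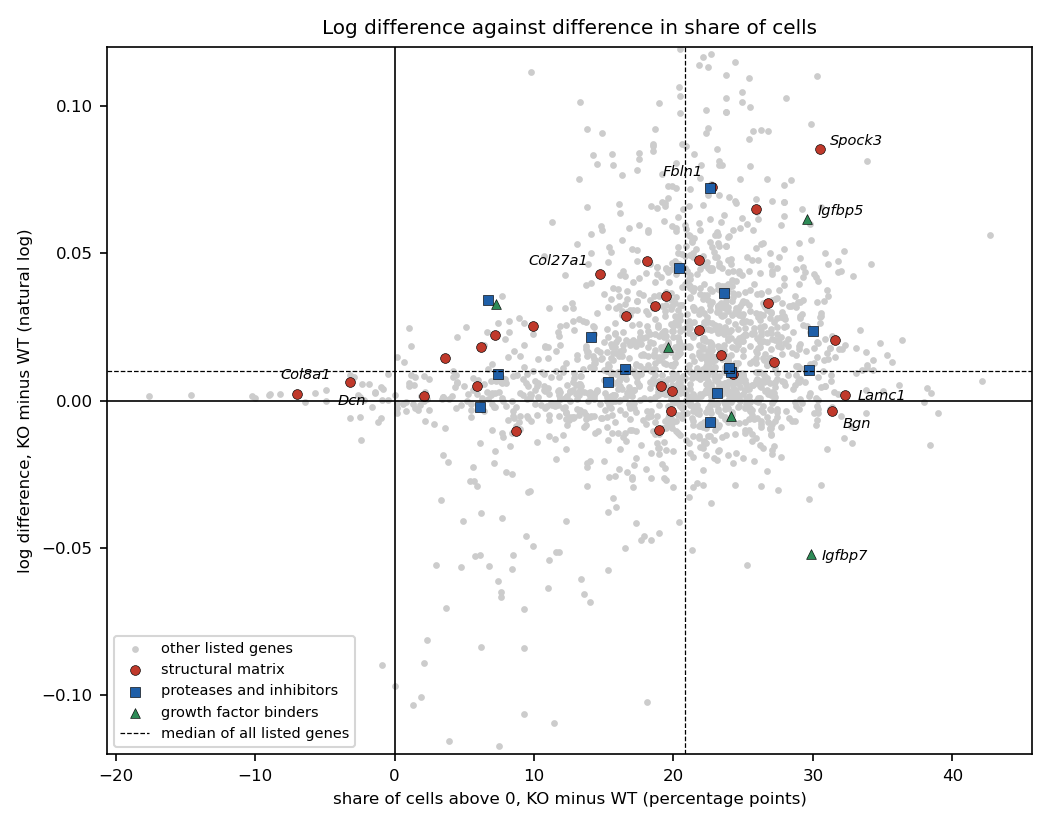
Log difference (KO minus WT, natural log, vertical axis) against the difference in the share of cells above 0 (percentage points, horizontal axis) for the matrix genes by role and for the other listed genes in grey; 42 of those lie beyond the plotted range of 0.12. Igfbp7 combines a gain of 29.9 points with a log difference of -0.0522, and Col8a1 and Dcn lie to the left of 0.

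The median log difference of the table varied with the share of WT cells above 0, so the matrix genes were also read beside other genes of like share. Among genes with a WT share from 40% to under 50%, the 11 matrix genes had a median log difference of 0.0430 and the 700 others 0.0182. Those 11 were Spock2, Spock3, Sparc, Timp3, Efemp1, Col4a1, Col4a2, Col4a4 and Col4a5, called higher, Serpine2, called lower, and Col27a1, not called. From 30% to under 40% the medians were 0.0111 for 17 matrix genes and 0.010 for 575 others. Below 30% they were 0.00637 for 17 and 0.00262 for 259, and from 50% upward 0.0156 for 5 and 0.00303 for 218. The median gain in share did not show the same pattern. From 40% to under 50% it was 22.6 points for matrix genes and for the others alike. From 30% to under 40% it was 21.8 points for matrix genes and 21.4 for the others. Below 30% it was 8.7 against 14.4 points, and from 50% upward 22.8 against 17.35. All these medians are descriptions of one table and were not tested.

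Related lists outside the symbol rule give the surroundings of these genes. The whole table called 69.1% of its genes higher and 24.1% lower. Of 31 matrix receptors looked for, 11 were listed, 8 called higher and 3 lower, with a median of 0.00619. At or below the median gene of the table lay 7 of these 11 receptors. The highest were the integrin subunit genes Itgav (0.0619) and Itga6 (0.0579), the latter part of laminin receptors, followed by the collagen receptor gene Ddr1 (0.0321) and the glypican gene Gpc3 (0.0152), per the authors' deposited table. Of 26 other proteases and inhibitors 11 were listed, 8 higher, 2 lower and 1 not called, with 7 at or below the median gene. Cst3, the cysteine protease inhibitor cystatin C, was by far the lowest at -0.214, and Ctss (0.0248), Htra1 (0.0170) and Ctsz (0.0127) were called higher per the authors' deposited table.

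For the transforming growth factor beta and BMP pathway, 9 of 24 genes were listed, with 6 called higher, 2 lower and 1 not. Their median was 0.00668, and 5 of the 9 lay at or below the median gene of the table. Bmp7 (0.0291), the latency protein gene Ltbp3 (0.0217) and the co-receptor gene Tgfbr3 (0.0165) were called higher, and the BMP target Id3 (-0.00693) lower, per the authors' deposited table. The related genes Id1 (0.00263) and Id2 (0.00621), chosen after their values were seen, were called higher per the authors' deposited table. Of 8 genes of insulin-like growth factor signalling only the receptor genes Igf1r (0.0863) and Insr (0.0111) were listed, both called higher, per the authors' deposited table. Igf1r thus lay above every matrix gene of the table, Igfbp5 and Spock3 included.

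Markers of the cells that make matrix went in different directions. Of 12 endothelial markers 8 were listed, 3 called higher and 4 lower, from -0.0185 to 0.030, with WT shares of 17.5% to 45.2% and KO shares of 41.7% to 65.6%, while Cdh5, Tek, Tie1 and Emcn were not listed. Of 10 pericyte and smooth muscle markers 4 were listed, 2 higher and 2 lower, from -0.0507 for Rgs5 to 0.0428 for Acta2, with WT shares of 31.1% to 53.3% and KO shares of 53.2% to 72.1% per the authors' deposited table. Kcnj8 and Abcc9, further defining pericyte genes, were not listed. Of 8 fibroblast markers only the matrix genes Dcn and Col1a2 were listed.

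Of 11 Müller glia markers 9 were listed, 7 higher and 2 lower, from -0.0288 to 0.103, with WT shares of 31.4% to 62.9% and KO shares of 54.4% to 82.1%, and Rlbp1 and Glul were not listed. Of 8 astrocyte markers 5 were listed and all called higher, as were 69.1% of all listed genes. Their log differences ran from 0.00269 to 0.0444, with WT shares of 33.2% to 66.2% and KO shares of 48.4% to 83.1%. Aldoc (0.00269) lay below the median gene of the table and the other 4 above it, Gfap (0.0101) only just, per the authors' deposited table. S100b, Pax2 and Aldh1l1 were not listed. Pigment epithelium markers had 4 higher and 1 lower of 5 listed out of 9 looked for, from -0.00605 to 0.0800. Their WT shares were 16.7% to 37.5% and their KO shares 15.7% to 51.8%, and the defining gene Rpe65 was not listed.

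Lens markers, 7 listed of 15, had 6 called higher and 1 not, from 0.212 to 0.296, with WT shares of 62.5% to 88.1% and KO shares of 83.5% to 99.3%. Microglial markers had 5 higher and 3 lower of 8 listed out of 9, from -0.00387 to 0.0376, with WT shares of 18.3% to 47.1% and KO shares of 28.8% to 78.1%. All 12 listed rod markers of 13 were called lower, from -0.263 to -0.0494. Their WT shares were 72.4% to 99.1% and their KO shares 78.7% to 99.5%. The share was larger in KO for all 12, by 0.1 to 9.9 percentage points. The part of these cell types in the values of the matrix genes was not tested.

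**Figure D4:**
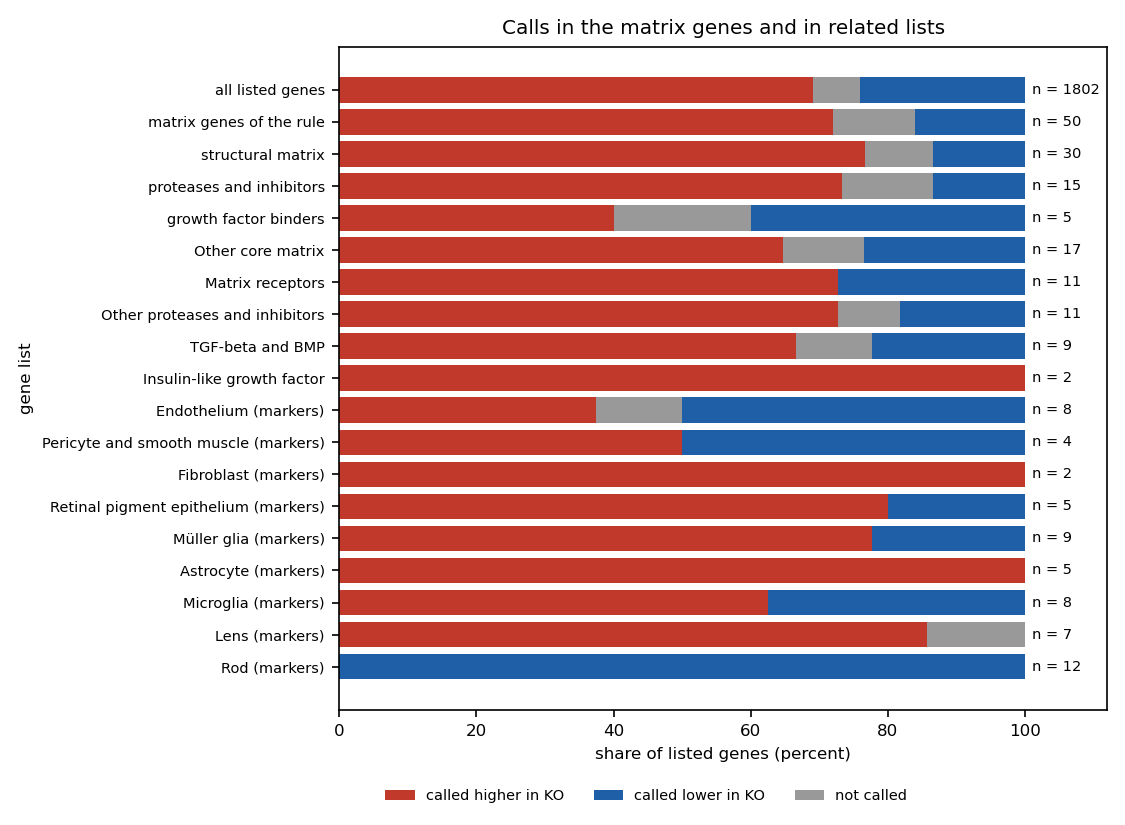
Share of listed genes (percent, horizontal axis) called higher in KO (red), not called (grey) and called lower (blue) for all listed genes, the matrix genes by role, related matrix lists and cell type markers, with the number listed at the right. The matrix genes as a whole, with 36 of 50 higher, lie near the whole table. Rod markers were all called lower (12 of 12). Next in their share of lower calls were endothelial markers (4 of 8) and pericyte and smooth muscle markers (2 of 4). Growth factor binders (2 of 5) and microglial markers (3 of 8) followed.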

How the data were processed

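Retinas were dissociated with papain and sequenced from the 3′ end of transcripts on the 10x Chromium system, per the labels' protocols. Cell Ranger, Seurat 3.1.4 and DESeq2 are named with GRCm38 in the submitters' processing notes. The sources used here do not give the test, the filters on cells, doublet handling or the method of integration. The authors' deposited table holds a log difference per gene, whose base was taken as the natural log, as that Seurat version writes it. Its shares of cells above 0 are deposited as a fraction and printed as percent. Raw and adjusted p-values were deposited by the authors, and the adjusted one was 2000 times the raw one in 1554 rows. Only rows with that factor were counted. So 2000 features were taken as tested, of which 198 were not listed, and the largest raw p listed was 0.00938. The absence of a gene says nothing about its change. The cluster column reads KO throughout, so the first share was taken as KO. The number of cells and the depth per library are unknown here, so no interval is given, and p-values over pooled cells do not measure the spread between libraries.

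Genes were matched by symbol with Python 3.11.15 and pandas 2.3.3, called at an adjusted p under 0.05, and counted and summarised by medians with no list test. The counting was tested on simulated data. Positions came from GENCODE M21 for 49 genes by symbol and for Ctgf through its newer symbol. The genes, families and lists were chosen with earlier results of these data known. All 50 genes are named. Shares and adjusted p are given for the 20 largest log differences, genes called lower under -0.01 and the 2 genes on either side of the threshold. From each related list up to 4 called genes with the largest log difference are named, and one that this selects is not reported here. Genes with further values shown were chosen after their values were seen.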

Additional observations from a re-analysis of the deposited data

How the results depend on the processing

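The counts of calls by role were recomputed at adjusted p under 0.01 and 0.001 and with Benjamini-Hochberg adjustment over 2000 features. They were also recomputed with a minimum share of 10% in one group, and without 5 genes (Adam9, Adam10, Adam11, Serpinb6a, Serpinh1). These genes were set aside as not secreted matrix, though the membrane-anchored Mmp14 and the transmembrane collagen gene Col23a1 were kept. With Benjamini-Hochberg adjustment 42 genes were called higher and 8 lower, so the 6 uncalled genes were then called as well. That outcome was fixed in advance, since no raw p above 0.00938 was listed and every listed gene is then called. The minimum share could remove no matrix gene either, as their smallest shares were 15.9% in KO and 18.5% in WT. Proteases and inhibitors called higher went from 11 to 6 without the 5 genes set aside, as fewer genes were counted. All other counts stayed within 1.5 times. Read against the median gene of the table, lower calls went from 8 to 19 in all, from 4 to 11 in structural matrix and from 2 to 6 in proteases and inhibitors, whose higher calls went from 11 to 7. The median log difference became 0.00502 and the median gain in share, 19.85 points, became -0.95 points. By construction, genes between 0 and the median turned lower: Adamts1 (-0.00760), Col8a1 (-0.00767), Col9a2 (-0.00499), Col9a3 (-0.00678), Dcn (-0.00367), Lamc1 (-0.00830), Loxl1 (-0.00522), Mmp9 (-0.000953), Serpinb6a (-0.000475), Serpinh1 (-0.00390) and Sparcl1 (-0.000940). No paired analysis was possible because the table holds no value per library, and leaving out single libraries was not run for that reason.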

Other observations

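Further core matrix genes that the symbol rule leaves out, a mixed list of neural, photoreceptor and connective tissue genes, also went both ways. Of 48 further core matrix genes looked for, 17 were listed, 11 called higher, 4 lower and 2 not, with a median of 0.00522. At or below the median gene of the table lay 10 of these 17. The lowest was Vtn (-0.125), which encodes vitronectin, per the authors' deposited table. Vtn was above 0 in 82.7% of KO and 75.9% of WT cells per the authors' deposited table. The highest were the neural chondroitin sulphate proteoglycan gene Cspg5 (0.0456) and Tnr (0.0318), which encodes tenascin-R of perineuronal nets, per the authors' deposited table. The interphotoreceptor matrix genes Impg1 (0.0146) and Impg2 (-0.00836), chosen after their values were seen, were called in opposite directions per the authors' deposited table.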
